A study of Mus musculus with 2 samples.

Results

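The interleukin-1 family comprises signalling ligands, their receptor chains and several dedicated inhibitors. In these data it was followed through 10 genes chosen by symbol, out of 55536 genes in the deposited tables, and all 10 were found. There were 5 ligands (Il1a, Il1b, Il18, Il33 and Il36g, listed in the tables under its older symbol Il1f9), 3 antagonists and decoys (Il1rn, Il18bp and Il1r2) and 2 receptor chains (Il1r1 and Il1rap). Polyadenylated RNA of whole-cell extracts came from macrophages grown from the bone marrow of C57BL/6J mice and stimulated for 300 min at 100 ng/mL. Its name differs between label fields, Lipid A in one and the protein lipoprotein A in others, and it is called the stimulus here. There is 1 group of 2 libraries, numbered biological replicates 1 and 2, whose biosample records are separate but whose donor record is shared; nothing says that the cultures were separate, so the spread may be technical. The age and sex of the animals are recorded as not collected. No unstimulated library was analysed here, so no value is a response to the stimulus, and with 2 libraries no permutation test of a value can go below a two-sided p of 0.333. None is given.

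Interleukin-1 alpha and beta are ligands of the same receptor, formed by the chain encoded by Il1r1 and the accessory chain encoded by Il1rap, which passes the signal through the adaptor Myd88. The beta form and interleukin-18 are made as precursors that caspase-1 cleaves in inflammasomes before release, whereas the alpha precursor is already active. The product of Il1rn occupies the receptor without signalling, Il1r2 is a decoy receptor that binds the ligand, and Il18bp is a soluble protein that captures interleukin-18. Macrophages are a classical source of these ligands after contact with bacterial products.

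The depth was 38078399 expected counts in replicate 1 and 63705317 in replicate 2. All 8 macrophage markers were above 1 TPM (a length-scaled share of a library's transcripts) in both libraries, beside 42.4% of protein-coding genes. They summed to 15672 and 21714 TPM in replicates 1 and 2. Of 11 neutrophil markers, 4 reached 1 TPM in both libraries, beside the same 42.4%. The 11 summed to 516 TPM in replicate 1 against 26.9 in replicate 2. The highest of them was S100a9, and Ly6g was at 0 in both. Platelet markers summed to 767 and 107 TPM, nearly all of it Pf4. Markers of T cells (highest Cd5), B cells (Cd79b), NK cells (Ncr1), dendritic cells (Clec9a), mast cells and basophils (Cpa3) and fibroblasts (Col1a1) summed to 3.34 TPM or less for each type in either library. The endothelial list, led by Vwf, summed to 6.98 and 13.7 TPM, and the epithelial list, led by Epcam, to 0 and 0.02 TPM, with Krt5, Krt14 and Krt8 at 0.

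The upstream sequences of the 3 most abundant members are shown because their levels set the balance of the family described below. Il1rn also has a pair of start regions that give different proteins. Its downstream region has RefSeq starts at 24345291 and 24345371, and only the window of the first is printed. Each is the 250 bases before a start site, 5′ to 3′ on the gene's strand, from RefSeq on GRCm38.p6. Capitals mark matches, on either strand, to the TATA box letters TATAAA or to the AP-1 letters TGANTCA. The windows are chr2:129309973-129310222 (minus strand) for Il1a, chr2:129371140-129371389 (minus strand) for Il1b, chr2:24336610-24336859 (plus strand) for the upstream start of Il1rn and chr2:24345041-24345290 (plus strand) for its downstream start.
Il1a: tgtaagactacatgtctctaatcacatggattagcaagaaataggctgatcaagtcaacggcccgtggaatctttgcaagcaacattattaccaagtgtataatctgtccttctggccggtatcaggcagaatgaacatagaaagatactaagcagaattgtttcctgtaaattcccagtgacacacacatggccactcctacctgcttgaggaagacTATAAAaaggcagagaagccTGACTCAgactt
Il1b: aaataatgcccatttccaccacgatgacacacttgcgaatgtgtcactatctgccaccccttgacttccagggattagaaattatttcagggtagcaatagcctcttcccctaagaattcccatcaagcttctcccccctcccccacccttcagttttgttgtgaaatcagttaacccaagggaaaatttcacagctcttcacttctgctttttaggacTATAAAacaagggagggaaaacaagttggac
Il1rn upstream start: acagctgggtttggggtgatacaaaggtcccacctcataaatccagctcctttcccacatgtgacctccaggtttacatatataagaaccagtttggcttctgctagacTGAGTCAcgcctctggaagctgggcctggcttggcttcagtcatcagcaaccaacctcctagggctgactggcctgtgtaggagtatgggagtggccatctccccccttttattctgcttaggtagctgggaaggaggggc
Il1rn downstream start: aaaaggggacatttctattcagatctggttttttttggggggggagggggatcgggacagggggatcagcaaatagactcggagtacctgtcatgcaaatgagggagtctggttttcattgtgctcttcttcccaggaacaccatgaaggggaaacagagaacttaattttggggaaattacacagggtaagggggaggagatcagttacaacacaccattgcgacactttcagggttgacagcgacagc

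In Il1a the TATAAA letters lay 32 to 27 bases before the start, and in Il1b 31 to 26 bases before it, on the gene's strand in each. Over the 32841 windows of this length in the RefSeq table, 12.4% held TATAAA on either strand. A TGANTCA match lay 12 to 6 bases before the Il1a start and 141 to 135 bases before the upstream Il1rn start, and 6.75% of all windows held one. The window of the downstream Il1rn start held neither. None of the 4 windows held the C/EBP core letters TTGCNNAA (9.57% of all windows), the ISRE core of interferon-response genes (GAAA, any 2 bases, GAAA; 2.98%) or the NF-kB consensus (3.9%). The matches printed do not overlap each other. All 10 members had an entry, with 14 starts between them. Among the other starts, the downstream one of Il33, from which its leading transcript begins, had TATAAA 29 to 24 bases before it. These are matches of letters, with no measurement of binding.

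The family's transcripts spanned about 4 orders of magnitude. The antagonist Il1rn was the highest member in both libraries, the ligands Il1a and Il1b followed, Il18 and Il18bp stood near each other, and the receptor chains were low or close to the limit of detection. Of the 10 members, 7 reached 1 TPM in both libraries, beside 42.4% of protein-coding genes (18% of all genes). At 100 TPM in both libraries there were 5, beside 5.08% of protein-coding genes.

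**Figure D1:**
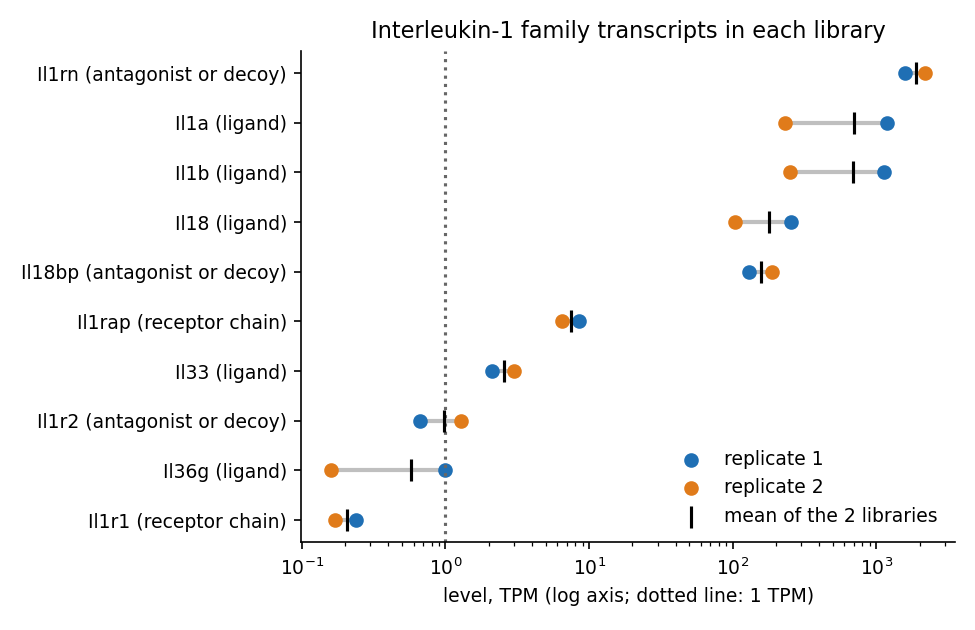
Level of each member (log axis, TPM): blue points are replicate 1, orange points replicate 2, the black tick their mean and the dotted line 1 TPM. Il1rn lies highest at 1577 and 2183 TPM, and Il1a and Il1b have long bars between their libraries, with replicate 2 on the lower side.

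Il1rn (ENSMUSG00000026981.15, chromosome 2, 24336853 to 24351494, plus strand, mm10) encodes the receptor antagonist. Its level was 1577 TPM in replicate 1 and 2183 in replicate 2, from 64798 and 154822 expected counts, a mean of 1880 ± 429 TPM (SD, n = 2). It ranked 82 of all genes in replicate 1 and 52 in replicate 2.

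Il1a (ENSMUSG00000027399.1, chromosome 2, 129299610 to 129309972, minus strand) encodes interleukin-1 alpha. It had 1177 TPM in replicate 1 and 231 in replicate 2, from 49990 and 16410 expected counts, a mean of 704 ± 669 TPM (SD, n = 2). Its rank went from 108 in replicate 1 to 682 in replicate 2. Il1b (ENSMUSG00000027398.13, chromosome 2, 129364570 to 129371139, minus strand) encodes interleukin-1 beta and starts 61167 bases from Il1a. It had 1129 TPM in replicate 1 and 252 in replicate 2, from 30178 and 11430 expected counts, a mean of 690 ± 620 TPM (SD, n = 2). Its rank was 118 in replicate 1 and 627 in replicate 2. The range of Il1a lay below that of Il1rn with no overlap, whereas the ranges of Il1a and Il1b overlapped almost entirely.

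Il18 (ENSMUSG00000039217.13, chromosome 9, 50554827 to 50581840, plus strand) encodes interleukin-18. It had 253 TPM in replicate 1 and 103 in replicate 2, a mean of 178 ± 106 TPM (SD, n = 2), from 3408 and 2628 expected counts. Its antagonist Il18bp (ENSMUSG00000070427.4, chromosome 7, 102014885 to 102018690, minus strand) had 129 TPM in replicate 1 and 186 in replicate 2, a mean of 158 ± 40.2 TPM (SD, n = 2), from 3628 and 9172 expected counts. The range of Il18 overlapped those of Il1b and of Il18bp. Within each library Il1b was still above Il18, at 1129 against 253 TPM in replicate 1 and 252 against 103 in replicate 2. Il18 was above Il18bp in replicate 1 and below it in replicate 2. The ranges of Il1b and Il18bp did not overlap.

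The remaining ligands were low. Il33 (ENSMUSG00000024810.16, chromosome 19, 29925114 to 29960718, plus strand), which encodes an alarmin released from damaged cells, had 2.12 TPM in replicate 1 and 3.02 in replicate 2, from 120 and 286 expected counts. Il36g (ENSMUSG00000044103.4, chromosome 2, 24186476 to 24193568, plus strand), a ligand best known from epithelia, had 0.99 and 0.16 TPM. These came from 34 counts, with a 95% exact Poisson interval of 23.5 to 47.5, and 9 counts, with an interval of 4.12 to 17.1, which cover counting error only. The second quantification gave 1.38 and 0.39 TPM, from 53.8 and 25.9 estimated counts, both outside those intervals. The epithelial markers Krt5, Krt14 and Krt8 were at 0 in both libraries.

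The receptor side was uneven. Il1rap (ENSMUSG00000022514.14, chromosome 16, 26581704 to 26730117, plus strand) had 8.47 TPM in replicate 1 and 6.43 in replicate 2, a mean of 7.45 ± 1.44 TPM (SD, n = 2), and did not overlap in range with Il18bp above it or Il33 below it. Il1r2 (ENSMUSG00000026073.13, chromosome 1, 40074079 to 40125231, plus strand) had 0.67 and 1.28 TPM, from 19 and 62 expected counts. Il1r1 (ENSMUSG00000026072.12, chromosome 1, 40225080 to 40317257, plus strand), which lies 99849 bases beyond the end of Il1r2, had 0.24 and 0.17 TPM, from 30 and 32 expected counts. It was the lowest member by mean, at 0.205 ± 0.0495 TPM (SD, n = 2), and the ranges of Il1r2, Il36g and Il1r1 overlapped from each to the next. The accessory chain was thus at 35.3 times the level of the ligand-binding chain in replicate 1 and 37.8 times in replicate 2, in TPM.

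Between the libraries, the 3 abundant ligands and the 3 inhibitors differed in opposite directions. Ratios were taken from counts scaled by TMM (a scaling that centres most genes), as replicate 2 over replicate 1, and called at 1.5-fold. Of the 9 members with enough counts, 7 passed 1.5-fold, beside 35.8% of the 12226 genes with enough counts. There were 3 higher in replicate 1 (Il1a, Il1b and Il18), beside 19.1% of genes, and 4 higher in replicate 2 (Il1rn, Il18bp, Il33 and Il1r2), beside 16.7%. The median log2 ratio of the 9 was -0.26, and that of all genes with enough counts was -0.01. Past 2-fold there were 2 higher in replicate 1 (Il1a and Il1b), beside 7.94% of genes, and 1 higher in replicate 2 (Il1r2), beside 5.25%. With 1 library on each side these are differences between libraries of the same treatment, and no test of them has a replicate behind it.

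**Figure D2:**
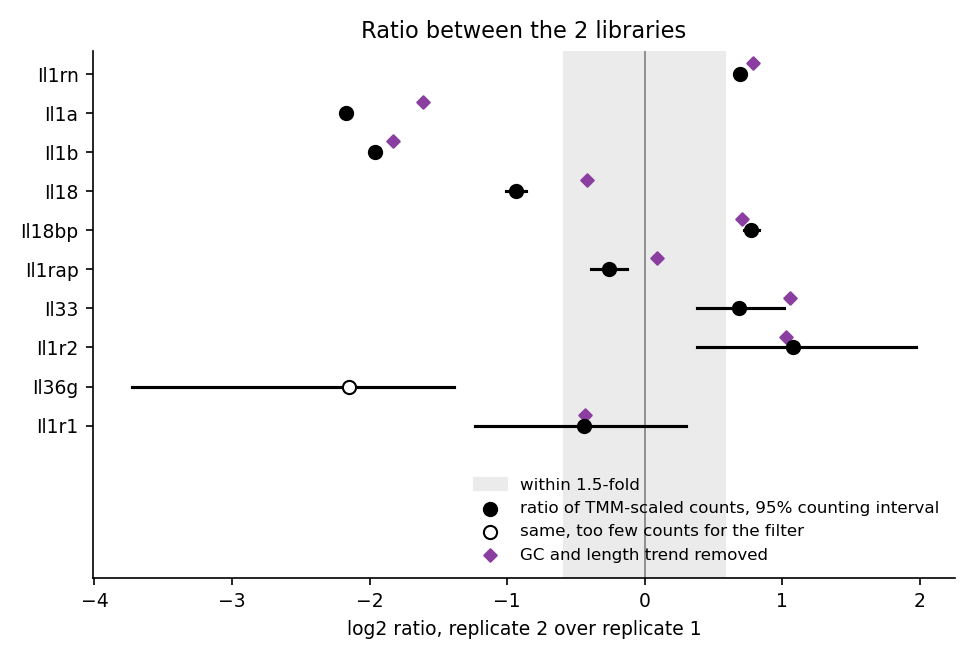
Log2 ratio of replicate 2 over replicate 1 for each member; black points are TMM-scaled counts with 95% counting intervals, the open point is Il36g, which had too few counts for the filter, diamonds are after removal of a GC and length trend, and the grey band is within 1.5-fold. Il1a at -2.17 and Il1b at -1.96 stand far to the left, and Il1rn and Il18bp lie just beyond the band on the right.

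Il1a had a log2 ratio of -2.17 (95% counting interval -2.19 to -2.14), which is 4.50-fold higher in replicate 1. Il1b had a log2 ratio of -1.96 (-1.99 to -1.93), which is 3.90-fold higher in replicate 1. Only 0.409% of the genes with enough counts had a ratio as low as that of Il1a or lower, and 0.679% as low as that of Il1b. Il18 followed at -0.94 (-1.01 to -0.86), 1.91-fold higher in replicate 1. Of the 11 neutrophil markers, 5 had enough counts. S100a8, S100a9, Ngp and Ltf were past 1.5-fold higher in replicate 1, beside 19.1% of genes. Their log2 ratios ran from -4.10 to -4.61, and Mmp8 was at 0.08. Of the 4 platelet markers, Pf4 and Ppbp had enough counts. Both were past 1.5-fold higher in replicate 1 too, at -2.55, beside 19.1% of genes. Itga2b, at 1.35 and 0.09 TPM, and Gp9, at 0.66 and 0 TPM, were too low for the filter. Neutrophils also make interleukin-1, and the part of these cells in the ligand values was not tested. In bulk RNA, fewer cells of a type and less RNA per cell cannot be told apart.

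On the inhibitor side, Il1rn had a log2 ratio of 0.69 (0.68 to 0.71), 1.62-fold higher in replicate 2, and Il18bp one of 0.78 (0.72 to 0.83), 1.71-fold higher. Of the 8 macrophage markers, Csf1r and Cd68 were also past 1.5-fold in that direction, at 0.63 and 1.34, beside 16.7% of genes. The other 6 were within 1.5-fold and lay on both sides of 0. Lyz2 was at 0.57, Cd14 at 0.33, Itgam at 0.24, Mertk at -0.05, Fcgr1 at -0.12 and Adgre1 at -0.37. The relation to the inhibitors was not tested. Csf1r was within 1.5-fold with the GC and length trend removed, at 0.39, and with total-count scaling, at 0.45. Il1r2 had a ratio of 1.08, with a wide counting interval of 0.38 to 1.97, and the alarmin Il33 one of 0.68 (0.38 to 1.01). Il1rap, at -0.26 (-0.39 to -0.13), and Il1r1, at -0.44 (-1.23 to 0.30), were within 1.5-fold. Il36g was left out by the filter; without the filter its log2 ratio was -2.15, from 34 and 9 counts.

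A trend of the ratio with GC content and transcript length, fitted over all genes, was removed as an alternative. At the members with enough counts this trend ran from -0.57 for Il1a to 0.06 for Il18bp. This moved Il18 within 1.5-fold, to -0.42, and turned Il1rap to 0.09. Il1a moved to -1.61 and Il1b to -1.83, both still past 1.5-fold. On the log2(TPM + 1) scale the 3 ligands stayed past 1.5-fold, whereas Il1rn at 0.47, Il18bp at 0.52, Il33 at 0.37 and Il1r2 at 0.45 did not. With total-count scaling Il1rn and Il33 were within 1.5-fold, both at 0.51, and Il1r1 was past it, at -0.61.

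The make-up of the family differed between the libraries. The 10 members summed to 4278 TPM in replicate 1 and 2967 TPM in replicate 2. Ligands held 59.9% of this sum in replicate 1 and 19.9% in replicate 2, and antagonists and decoys held 39.9% and 79.9%. The receptor chains held 0.204% and 0.222%.

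**Figure D3:**
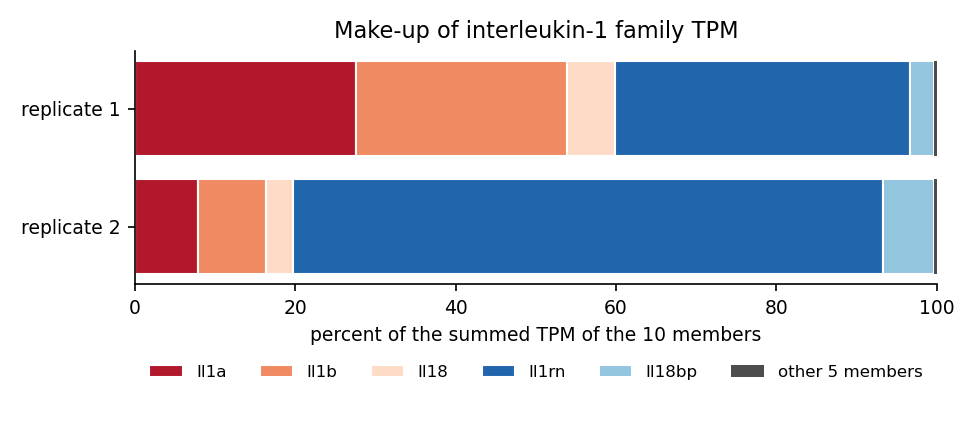
Share of the summed TPM of the 10 members held by each of the 5 most abundant and by the other 5, per library, with ligands in red tones and antagonists in blue tones. Il1rn takes 36.9% of the sum in replicate 1 and 73.6% in replicate 2.

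Within a library, Il1rn exceeded Il1a 1.34-fold in replicate 1 and 9.46-fold in replicate 2. It exceeded Il1b 1.40-fold and 8.67-fold. Antagonist was thus above each ligand in both libraries, by a margin that differed widely between them. For interleukin-18 the order turned: Il18bp was at 0.511 times the level of Il18 in replicate 1 and at 1.80 times in replicate 2, in TPM. In expected counts, which keep transcript length, the log2 ratio was 0.09 and 1.80, so the order did not turn. The decoy Il1r2 exceeded Il1r1 2.79-fold and 7.53-fold in TPM, from few counts, and its log2 ratio in expected counts was -0.66 and 0.95. The log2 ratio of summed antagonists and decoys over summed ligands, a quantity chosen after the values were seen, was -0.59 in replicate 1 and 2.01 in replicate 2. By contrast the 2 ligands of the same receptor kept their proportion, with a log2 ratio of Il1a over Il1b of 0.06 and -0.13.

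**Figure D4:**
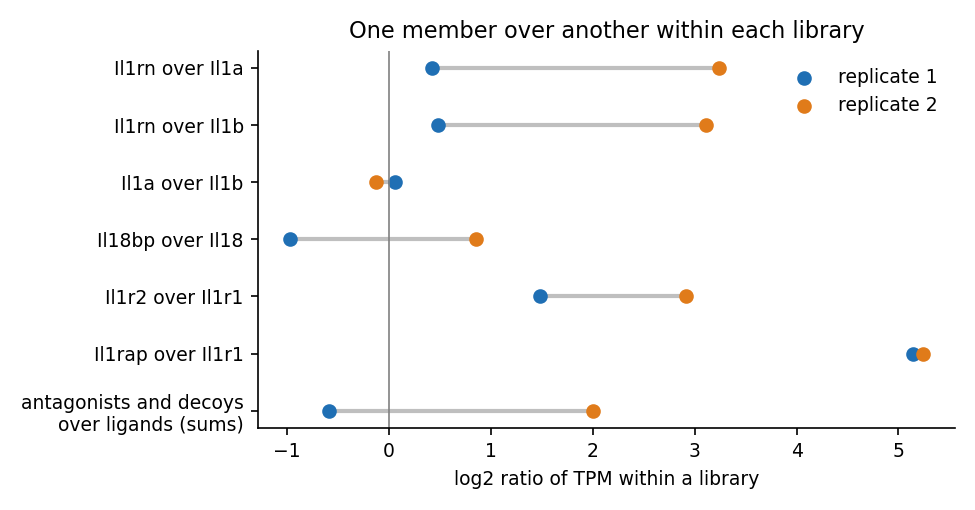
Log2 ratio of TPM of one member over another within each library (blue, replicate 1; orange, replicate 2). Il1a over Il1b and Il1rap over Il1r1 have points close together, while Il18bp over Il18 lies on opposite sides of 0, at -0.97 and 0.85.

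Transcripts of several members give proteins of different fates. The leading transcripts of the 2 Il1rn starts begin 8457 bases apart in GENCODE. Transcripts of the downstream start, led by Il1rn-201, whose 178 codons encode the secreted antagonist, held 89.6% of the gene's TPM in replicate 1 and 87.3% in replicate 2. Those of the upstream start, led by Il1rn-204, whose 159 codons encode the intracellular form, held 10.4% and 12.7%, or 11.6% ± 1.60 (SD, n = 2). The second deposited quantification gave 10.2% and 8.97% for the upstream start, so the libraries changed order between the quantifications. In TPM the upstream start amounted to 164 and 277, more than Il18bp in each library. Il1rn-204 alone had 150.8 and 268.5 TPM in the first quantification. In the second it had 117.0 and 162.6 TPM, below Il18bp at 122.5 and 182.9.

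Il18 had less settled proportions. Il18-204, which holds the 192 codons of the full precursor, took 50.4% of the gene's TPM in replicate 1 and 81.7% in replicate 2 in the first quantification, and 70.7% and 76.7% in the second. The gap lay in Il18-202, also of 192 codons, with 30.8% and 0% in the first and 1.79% and 0% in the second. Il18-201 has the same length of 702 bases and differs from Il18-202 by 7 bases. It had 0% in both libraries in the first and 3.39% and 0.70% in the second. How reads were divided between these near-identical transcripts was not tested. Il18-203, with an open reading frame of 78 codons, took 18.8% and 18.3%, and 24.1% and 22.6% in the second. Il18bp-201 and Il18bp-203, of 193 codons each, took 73.7% and 24.3% in replicate 1 and 56.4% and 41.2% in replicate 2. In the second quantification Il18bp-203 took 17.9% and 19.4%.

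Il1rap was mainly the 570-codon transcript Il1rap-201, which encodes the membrane chain, with 91.7% and 88.0% of the gene's TPM. The 360-codon Il1rap-206, a short form, took 7.64% in replicate 1 and 11.4% in replicate 2, and 8.39% and 11.4% in the second quantification. Il1b-201 held 98.9% and 99.2% of Il1b, Il33-201 held 100% of Il33 in both, and Il1a had a single annotated transcript. Il1r1-202 held 60.5% and 100% of Il1r1 TPM, from gene counts of 30 and 32 that were too few to divide.

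**Figure D5:**
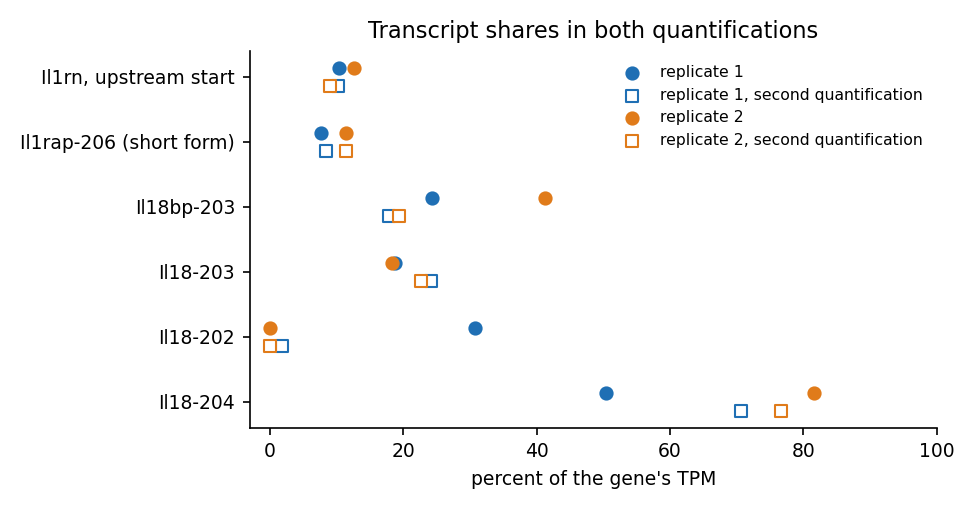
Percent of a gene's TPM in the transcripts named at left, in blue for replicate 1 and orange for replicate 2, as filled circles for the first quantification and open squares for the second. Il1rn and Il1rap shares lie within a few percentage points in all 4 values, while Il18-202 is at 30.8% in replicate 1 of the first quantification and below 2% elsewhere.

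Of 11 other receptors and ligands of the family, 1 reached 1 TPM in both libraries in the first quantification, beside 42.4% of protein-coding genes. This was Il18rap, the accessory chain of the interleukin-18 receptor, at 4.0 TPM in replicate 1 and 6.91 in replicate 2, with a log2 ratio of 1.06. Il1rl2, the interleukin-36 receptor chain, had 1.21 and 0.74 TPM and a log2 ratio of -0.72. The other 9 were below 1 TPM in both libraries in the first quantification. Of them, 6 (Il36a, Il36b, Il36rn, Il1f10, Il1rapl1 and Il1rapl2) were at 0 in both. The second quantification instead gave Il1rapl2 22.2 TPM in replicate 1 and 35.1 in replicate 2.

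Transcripts of the genes that mature and release the ligands were present throughout. All 14 of these genes reached 1 TPM in both libraries, beside 42.4% of protein-coding genes, and 8 reached 100 TPM, beside 5.08%. The inflammatory caspase Casp4 had 473 TPM in replicate 1 and 313 in replicate 2, Casp1, which cleaves the precursors of interleukin-1 beta and interleukin-18, had 525 and 251 TPM, and Ninj1, a mediator of plasma membrane rupture, had 219 and 266 TPM. Nlrc4, an inflammasome sensor, was lowest at 2.16 and 1.24 TPM. Of the 14, 2 were past 1.5-fold, beside 35.8% of all genes with enough counts. Both were higher in replicate 1, Casp1 at -0.87 and Nlrc4 at -0.65, beside 19.1% of genes. None was higher in replicate 2 by that much, beside 16.7%. With the GC and length trend removed Casp1 was within 1.5-fold, at -0.24, and in the second quantification Nlrc4 was, at -0.39. The median log2 ratio of the list was -0.07.

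All 14 genes that carry the receptor signal also reached 1 TPM in both libraries, beside 42.4% of protein-coding genes. The highest were Tab2, an adaptor of the kinase TAK1, at 142 and 291 TPM, Myd88 at 189 and 194 TPM, and the receptor-associated kinase Irak2 at 118 and 209 TPM. Tab3 was lowest at 4.4 and 2.13 TPM. Of the 14, 4 were past 1.5-fold, beside 35.8% of all genes with enough counts. Irak2 (0.74), Irak3 (0.98), which encodes a brake on the pathway, and Tab2 (0.93) were higher in replicate 2, beside 16.7% of genes. Chuk, the IKK alpha kinase, was higher in replicate 1 (-1.13), beside 19.1%. Irak2 was within 1.5-fold with the trend removed, at 0.53, and with total-count scaling, at 0.56. The median log2 ratio was 0.12.

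Annotated genes on the opposite strand overlap some members, and the strand setting of the counting is not stated. Il1bos over Il1b had 36 and 16 expected counts, and Gm14023 over Il1a had 46.3 and 11.1, far fewer than either ligand gene. Bco2, with 242 and 222 counts, shares 355 bases with Il18, which had 3408 and 2628. Tex12, with 13 and 9 counts, shares 4507 bases with Il18. Numa1, with 1992 and 5036 counts, shares 80 bases with Il18bp.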

How the data were processed

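The files hold gene and transcript tables of 2 libraries, on mm10 with GENCODE M21 per the deposited notes. Not given in the sources used here were the aligner, the quantifiers and their versions. Deposited expected counts are estimated reads per gene or transcript, unnormalized; deposited TPM values are scaled to length and library total, and deposited FPKM values to length and fragments. Deposited percent values are each transcript's share of its gene's TPM. A second deposited transcript table, in the layout kallisto writes, gave the second quantification, summed per gene.

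Rows naming no gene (0.132% and 0.0882% of expected counts) were left out. Counts were rounded, filtered by filterByExpr and scaled by TMM in edgeR 4.0.16 (R 4.3.3), with log2 ratios at a prior count of 2; the script was tested on simulated data. DESeq2 1.42.0 size factors were an alternative, and the GC and length trend was fitted with mgcv 1.9.3. Counting intervals are exact at 95% and hold no spread between cultures. Members and lists were chosen with earlier results of these data known. All 10 members are described, other family genes at 1 TPM in either library are named, and of maturation and signalling genes the 3 highest and the lowest by mean TPM, while genes past 1.5-fold in those lists and transcripts other than the leading ones were named after their values were seen.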

Additional observations from a re-analysis of the deposited data

How the results depend on the processing

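All 7 members past 1.5-fold kept the direction of their ratio under 7 alternative scalings, filters, prior counts, quantifications and trend corrections. Part of this was fixed in advance. DESeq2 size factors and total counts only rescale the libraries, and shifted the median of all genes by 0.01 and -0.18 in log2. Shifts of this size cannot turn the direction of a ratio past 1.5-fold. The number past 1.5-fold was 3 on the log2(TPM + 1) scale and 3 at a 2-fold threshold, and 6 to 8 otherwise. The number higher in replicate 2 was 2 with total counts, 0 on the log2(TPM + 1) scale and 1 at 2-fold. Detection at 1 TPM gave 7 or 8 members when either library was left out, 8 at 0.5 TPM and 6 at 5 TPM. Apart from the 2-fold threshold, no share of all genes was computed under these alternatives. Whether the other member counts lie above their background was therefore not tested.

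With 2 libraries, leaving out either returns the value of the other, so this was no separate check of the within-library log2 ratios. The values ran from 0.42 to 3.24 for Il1rn over Il1a and 0.48 to 3.12 for Il1rn over Il1b. For Il1a over Il1b they were -0.13 to 0.06, and for Il18bp over Il18 -0.97 to 0.85. Il1r2 over Il1r1 had 1.48 to 2.91, and Il1rap over Il1r1 5.14 to 5.24. Expected counts, which do not remove length, moved the mean of Il1a over Il1b to 0.62, of Il1r2 over Il1r1 to 0.15 and of Il1rap over Il1r1 to 4.95, and the second quantification moved the last to 4.92. In expected counts Il18bp over Il18 was 0.09 in replicate 1 and 1.80 in replicate 2, and Il1r2 over Il1r1 was -0.66 in replicate 1. Alternatives chosen after seeing the data changed the summed inhibitors over ligands to a mean of -2.97 without Il1rn and 3.61 without Il1a and Il1b. Depth limits Il1r1, Il1r2 and Il36g, which in the first quantification had at most 62 counts in either library. No paired analysis was possible because there is 1 group.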

Other observations

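Some genes near the family gave different levels in the 2 deposited quantifications. Il1rapl2, an accessory-type receptor chain known from the nervous system, was at 0 TPM in both libraries in the first and at 22.2 and 35.1 TPM in the second. The inflammasome sensor Nlrc4 had 2.16 and 1.24 TPM in the first and 12.2 and 7.69 TPM in the second. Cxcr2, a chemokine receptor of neutrophils, had 0.04 and 0.03 TPM in the first and 0.55 and 4.96 TPM in the second, where it was higher in replicate 2, unlike S100a8 and S100a9. These genes were singled out after their values were seen, and the cause was not tested.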
